A study of Homo sapiens with 12 samples.

Results

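12Z cells transfected with pCAG empty vector were profiled by mRNA-seq with and without insulin. Libraries were taken by their labels, 3 given 100 nM insulin (Insulin) and 3 given vehicle (Control), which is 6 of the 12 libraries of the series. Libraries are named by group and replicate, such as Control 1 and Insulin 3. The 12Z line is an immortalized line of human endometriotic epithelial cells, derived from ectopic endometriosis. The other 6 libraries came from cells transfected with pCAG Viperin, a plasmid for the interferon-stimulated gene RSAD2, with the same vehicle and insulin arms.

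All cells were transfected with FuGene HD and their medium was changed after 4 h. At 24 h after transfection they were starved of serum for 4 h, then kept in serum-free medium with insulin or vehicle, and RNA was taken 24 h later. Transfection, starvation and serum-free culture were therefore shared by Control and Insulin cells. The treatment text of the labels names a pBabe empty vector, whereas the group labels and the methods of the study name pCAG, which is the name used here. The methods state independent experiments for the replicates, all in 1 cell line. Bulk RNA was sequenced, so fewer cells of a type and less RNA per cell cannot be told apart.

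Control libraries held 25979022 to 34226757 read pairs assigned to genes and Insulin libraries 35511725 to 37109611. Control 1 was the shallowest and had 13.9% of its reads mapping to more than 1 place, against 9.60% to 10.3% in the other 5. Mitochondrially encoded genes took 5.59% to 6.64% of the counts in Control and 5.14% to 5.18% in Insulin libraries, with no overlap. In the check of the cell type, the keratins KRT8, KRT18 and KRT19 were abundant and PAX8 was present at 13.2 to 14.9 CPM, which for these markers are counts scaled to the pairs assigned to genes. EPCAM stayed at or below 0.49 CPM, GRHL2 had no count, and 7 of 17 epithelial markers were under 1 CPM in all 6 libraries. VIM, FN1, COL1A1 and COL3A1 lay above 1000 CPM, so mesenchymal and stromal markers were high in cells labelled as epithelial. Summed over the list, epithelial markers ran from 2569 to 2647 CPM in Control and from 2699 to 2832 CPM in Insulin libraries. Stromal markers summed to 3910 to 4719 and 4311 to 4347 CPM and mesenchymal markers to 3350 to 3741 and 3356 to 3430 CPM, with overlap in both. Endothelial markers summed to 10.6 to 12.0 and 10.3 to 11.7 CPM, muscle markers to 85.9 to 100.9 and 90.1 to 93.0 CPM and immune markers to 6.46 to 8.12 and 8.25 to 10.5 CPM, and the immune markers CD3E, TYROBP and NKG7 had no count in any of the 6. The CPM values of all later results also carry TMM factors, which adjust for differences in composition between libraries.

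Insulin binds the insulin receptor, a tyrosine kinase, which recruits IRS adaptor proteins and activates phosphoinositide 3-kinase (PI3K). PI3K in turn activates AKT, which keeps FOXO transcription factors out of the nucleus and promotes the activity of the mTORC1 kinase. FOXO factors induce genes for growth arrest, cell death, protein breakdown and the receptor itself, while mTORC1 promotes protein and ribosome synthesis, the translation of ATF4, a factor for amino acid genes, and the sterol factors of the SREBP family.

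Short promoter windows are shown for members of the FOXO, ATF4 and sterol lists whose RNA changed, beside listed members that hold the same letters and did not pass the test. The windows come from RefSeq promoters on GRCh38.p14, run 5′ to 3′ on the strand of the gene, and the capitals mark the motif on either strand. The FOXO letters searched were GTAAACA, in BTG1 and BCL2L11, which fell with insulin, and in TXNIP, which did not pass.
BTG1 (chr12:92146029-92146075, minus strand): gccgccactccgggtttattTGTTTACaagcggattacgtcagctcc
BCL2L11 (chr2:111120671-111120717, plus strand): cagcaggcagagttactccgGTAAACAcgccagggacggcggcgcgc
TXNIP (chr1:145996677-145996723, minus strand): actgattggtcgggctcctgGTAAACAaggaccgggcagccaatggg
For ATF4, the letters TGATGNAA of the C/EBP-ATF response element stood in CHAC1, which rose, and in ASNS and HERPUD1, which did not pass.
CHAC1 (chr15:40953242-40953289, plus strand): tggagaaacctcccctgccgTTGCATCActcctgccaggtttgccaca
ASNS (chr7:97872449-97872496, minus strand): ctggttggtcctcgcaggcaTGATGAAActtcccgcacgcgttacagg
HERPUD1 (chr16:56931946-56931993, plus strand): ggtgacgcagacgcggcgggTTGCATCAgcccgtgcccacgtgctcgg
The sterol response element, searched as TCACNCCAC, stood in SREBF2, which fell.
SREBF2 (chr22:41832952-41833000, plus strand): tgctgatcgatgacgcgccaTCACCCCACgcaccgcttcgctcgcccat

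Within the 250 bases before the start, GTAAACA was present in 2 of 16 promoters of FOXO list members that fell, in 3 of 30 of those that did not pass and in 1.99% of 13348 promoters of tested genes. TGATGNAA was present in 1 of 10 promoters of ATF4 list members that rose, in 4 of 29 that did not pass and in 1.60% of all. TCACNCCAC was present in 1 of 7 sterol list members that fell, 0 of 36 that did not pass and 0.876% of all. The E-box CACGTG, which reads the same on both strands, was present in 2 of 10 lysosome and autophagy members that fell, CTSA and CTSF, in 12 of 54 that did not pass and in 8.42% of all. These matches are letters in a window and not sites shown to be bound.

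Insulin lowered more genes than it raised, and most changes were small. Some growth-arrest genes such as YPEL3 and CCNG2, the receptor gene INSR and the leukotriene receptor gene CYSLTR2 fell. Some genes for amino acid supply (PSAT1, SLC3A2, SLC7A5), chaperones (HSPA5, CCT5) and polyamine synthesis (ODC1) rose. Most members of the amino acid lists given below did not pass. At an adjusted p under 0.001 in edgeR's quasi-likelihood test, 93 genes were higher, which is 0.404% of 23041 tested, and 179 were lower, which is 0.777%. Together the 272 genes are 1.18% of those tested, and 266 of them are protein-coding. In each of the 272 all Insulin libraries lay on one side of all Control libraries, as they did for 9.69% of all genes upward and 10.5% downward. Where lack of overlap is stated below for a gene called at 0.001, it describes the libraries and adds no support to the call. By size, log2 fold changes of Insulin over Control (log2FC, negative where insulin was lower) had a median of 0.24 among the higher and 0.30 among the lower genes. Of the 272, 13 changed by more than 1.5-fold, 12 of them downward, and the 3 past 2-fold all fell. At an adjusted p under 0.05, the threshold used below for members of gene lists, 583 genes were higher (2.53%) and 682 lower (2.96%), 5.49% together. Past 2-fold at 0.05 were 16 higher and 17 lower genes, with largest absolute log2 fold changes of 1.99 and 1.86. The larger falls were thus seen at 0.001 only. The median log2 fold change of all genes was -0.01. Of the 23041 genes, 13150 averaged 1 CPM or more over the 12 libraries. Shares of list members below were not compared with genes of like level.

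**Figure D1:**
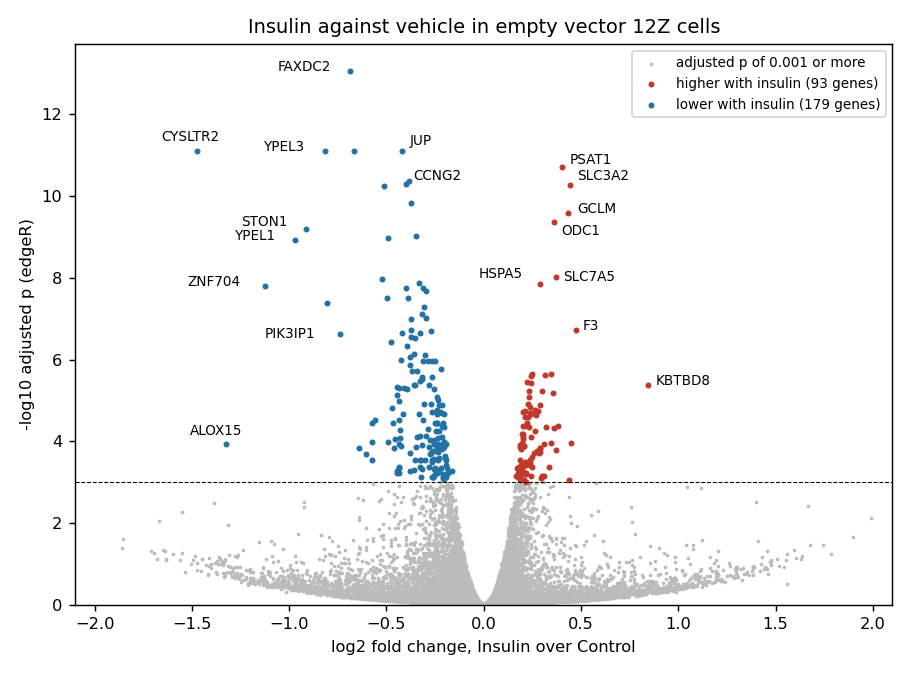
Log2 fold change of Insulin over Control (x axis) against the −log10 adjusted p of edgeR (y axis) for all 23041 genes, with the dashed line at an adjusted p of 0.001. Among genes past that line, the 179 lower ones reach further out than the 93 higher ones, with CYSLTR2 at -1.47 and KBTBD8 at 0.85.

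FAXDC2, a member of the fatty acid hydroxylase family, had the smallest p of all genes (ENSG00000170271.11, chromosome 5, 154818492 to 154859252, minus strand). It was measured at 34.3, 37.1 and 38.7 CPM in the Control libraries and 23.98, 22.9 and 21.6 CPM in the Insulin libraries, giving log2FC -0.69 ± 0.06 (SE, edgeR adjusted p = 8.6e-14). Every Insulin library lay well below every Control library. YPEL3, a Yippee-like gene of growth suppression (ENSG00000090238.12, chromosome 16, 30092314 to 30096915, minus strand), was at 18.7, 15.9 and 18.9 CPM with vehicle and 9.88, 10.1 and 10.3 CPM with insulin, giving log2FC -0.81 ± 0.08 (SE, edgeR adjusted p = 7.7e-12). Its relative YPEL1 was at 7.19, 7.55 and 8.195 CPM with vehicle and 3.67, 3.65 and 4.34 CPM with insulin, giving log2FC -0.97 ± 0.11 (SE, edgeR adjusted p = 1.2e-09). Both Yippee-like genes were separated between the groups with no overlap.

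The 2 largest falls among the genes called at 0.001 were in lipid mediator genes. CYSLTR2, a receptor for cysteinyl leukotrienes (ENSG00000152207.7, chromosome 13, 48653711 to 48711226, plus strand), was at 5.64, 5.97 and 6.22 CPM in the Control libraries and 2.33, 2.48 and 1.503 CPM in the Insulin libraries, giving log2FC -1.47 ± 0.15 (SE, edgeR adjusted p = 7.7e-12). ALOX15, the arachidonate 15-lipoxygenase, was at 2.47, 1.254 and 2.303 CPM with vehicle and 0.767, 0.709 and 0.822 CPM with insulin, giving log2FC -1.32 ± 0.25 (SE, edgeR adjusted p = 1.2e-04). ALOX15 was under 3 CPM in all 6 libraries, and it kept 0.05 but missed 0.001 without Control 3, Insulin 1, Insulin 2 or Insulin 3 (edgeR adjusted p = 0.0019, 0.0011, 0.0025 and 0.0014). PTGES, a prostaglandin E synthase, stood at log2FC -0.46 (edgeR adjusted p = 1.5e-04). These were the 3 of 29 measured members of the lipid mediator list that fell, and none rose.

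JUP (plakoglobin) and PPL (periplakin), which link junctions to the cytoskeleton, fell together. JUP (ENSG00000173801.17, chromosome 17, 41754604 to 41786931, minus strand) was at 132, 132 and 144 CPM in the Control libraries and 104, 103 and 98.1 CPM in the Insulin libraries, giving log2FC -0.42 ± 0.04 (SE, edgeR adjusted p = 7.7e-12). PPL was at 109.5, 109.6 and 114 CPM with vehicle and 86.8, 84.5 and 83.7 CPM with insulin, giving log2FC -0.39 ± 0.04 (SE, edgeR adjusted p = 4.3e-11). Neither gene had an Insulin library inside the Control range. Further genes among the 12 lower ones with the smallest p were GBP2, an interferon-induced GTPase, at log2FC -0.66 (edgeR adjusted p = 7.7e-12), PALM (paralemmin) with log2FC -0.51 (edgeR adjusted p = 5.6e-11), STON1, an endocytic adaptor, with log2FC -0.91 (edgeR adjusted p = 6.5e-10), and ABCA3, a lipid transporter, with log2FC -0.49 (edgeR adjusted p = 1.1e-09). CCDC80, a secreted matrix protein, fell with log2FC -0.38 (edgeR adjusted p = 1.5e-10) and VAT1L with log2FC -0.35 (edgeR adjusted p = 9.5e-10). STON1 shares exons with the read-through gene STON1-GTF2A1L, so its counts are uncertain. ZNF704, a zinc finger gene, was among the 5 with the largest fall, at log2FC -1.12 (edgeR adjusted p = 1.6e-08).

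PSAT1, which makes phosphoserine in serine synthesis (ENSG00000135069.14, chromosome 9, 78297125 to 78330093, plus strand), had the smallest p of the higher genes. It was at 102, 107 and 97.2 CPM in the Control libraries and 131, 139 and 135 CPM in the Insulin libraries, giving log2FC 0.40 ± 0.04 (SE, edgeR adjusted p = 2.0e-11). SLC3A2, the heavy chain of several amino acid transporters (ENSG00000168003.16, chromosome 11, 62856004 to 62888880, plus strand), was at 136, 128 and 116 CPM with vehicle and 163, 177 and 175 CPM with insulin, giving log2FC 0.44 ± 0.04 (SE, edgeR adjusted p = 5.5e-11). SLC7A5, the light chain LAT1 that pairs with it (ENSG00000103257.9, chromosome 16, 87830023 to 87869507, minus strand), was at 49.2, 49.5 and 50.01 CPM with vehicle and 64.3, 63.3 and 64.9 CPM with insulin, giving log2FC 0.37 ± 0.05 (SE, edgeR adjusted p = 9.7e-09). The chains of this transporter thus both rose, with close Control values for SLC7A5 and a wider spread for SLC3A2.

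GCLM, the modifier subunit of the enzyme that starts glutathione synthesis, was at 54.95, 59.7 and 57.8 CPM in the Control libraries and 71.3, 83.9 and 77.9 CPM in the Insulin libraries, giving log2FC 0.43 ± 0.05 (SE, edgeR adjusted p = 2.6e-10). ODC1, the first enzyme of polyamine synthesis, was at 110.3, 121 and 115 CPM with vehicle and 140.2, 154 and 152 CPM with insulin, giving log2FC 0.36 ± 0.04 (SE, edgeR adjusted p = 4.4e-10). HSPA5 (BiP), the main chaperone of the endoplasmic reticulum, was at 373, 408 and 367 CPM with vehicle and 459, 471 and 472 CPM with insulin, giving log2FC 0.29 ± 0.04 (SE, edgeR adjusted p = 1.4e-08). All Insulin libraries were above all Control libraries in these genes, although the steps were under 1.5-fold. F3, tissue factor, stood at log2FC 0.47 (edgeR adjusted p = 1.9e-07), SFXN1, a mitochondrial serine carrier, log2FC 0.25 (edgeR adjusted p = 2.3e-06), FKBP4, a co-chaperone of HSP90, log2FC 0.24 (edgeR adjusted p = 2.5e-06), and CCT5, a subunit of the cytosolic chaperonin, log2FC 0.22 (edgeR adjusted p = 3.5e-06).

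The only rise past 1.5-fold among the 93 genes was in KBTBD8, a substrate adaptor of the CUL3 ubiquitin ligase, at 4.06, 3.46 and 3.26 CPM in the Control libraries and 6.24, 6.49 and 6.66 CPM in the Insulin libraries, giving log2FC 0.85 ± 0.13 (SE, edgeR adjusted p = 4.3e-06). SPARC, a matrix protein, stood at log2FC 0.31 (edgeR adjusted p = 2.3e-06) and missed 0.001 without Control 3 (edgeR adjusted p = 0.0052). TRIM16L and YRDC were also among the 5 largest rises of genes called at 0.001, at log2FC 0.45 and 0.44. TRIM16L is close in sequence to TRIM16, so its counts are uncertain, and it missed 0.001 without Control 3, Insulin 2 or Insulin 3 (edgeR adjusted p = 0.0022, 0.0025 and 0.0022). YRDC, which acts in tRNA modification, had an adjusted p of 9.1e-04 in edgeR and of 0.089 on unstranded counts, and missed 0.001 without Control 1, Control 3, Insulin 2 or Insulin 3 (edgeR adjusted p = 0.0012, 0.018, 0.021 and 0.017). DDIT4 (REDD1), an inhibitor of mTORC1, was at 38.4, 39.5 and 36.2 CPM with vehicle and 51.7, 44.7 and 48.3 CPM with insulin, giving log2FC 0.34 ± 0.05 (SE, edgeR adjusted p = 2.3e-06). Without regard to strand the adjusted p of DDIT4 was 0.0077.

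**Figure D2:**
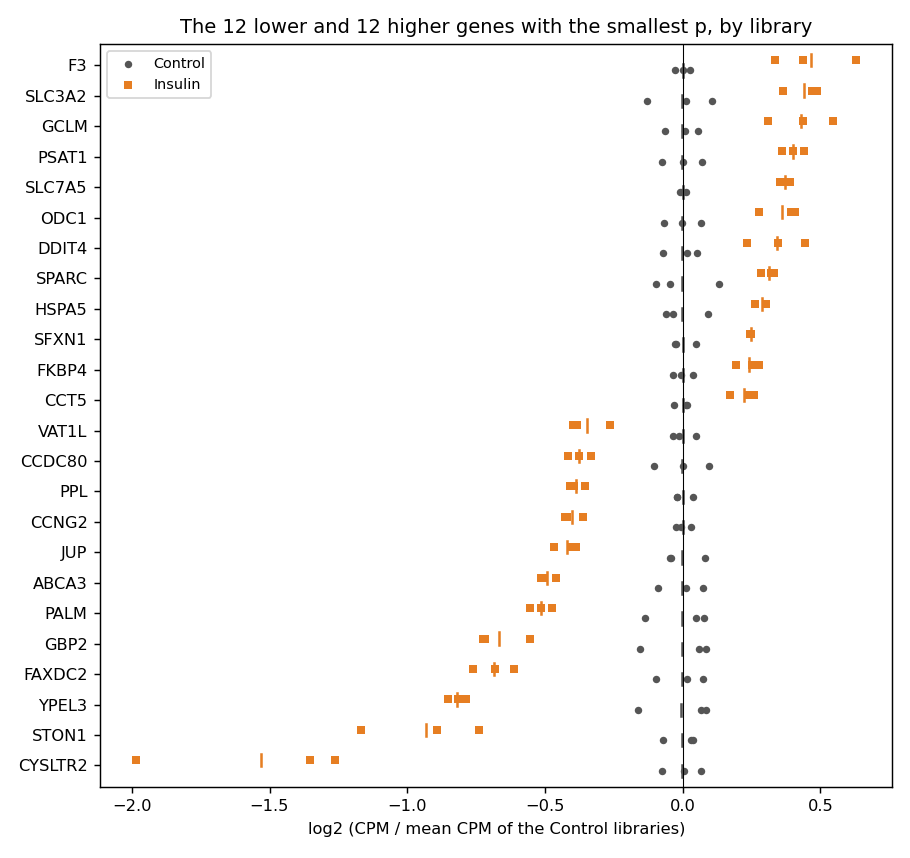
CPM of each library relative to the mean of the Control libraries, on a log2 axis, for the 12 lower and 12 higher genes with the smallest p. Grey points are the 3 Control and orange squares the 3 Insulin libraries, and short bars are group means. The genes were chosen among those whose groups do not overlap, so the lack of overlap follows from the choice.

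Among receptors and adaptors, both receptor tyrosine kinases fell. INSR, the insulin receptor (ENSG00000171105.14, chromosome 19, 7112255 to 7294414, minus strand), was at 26.4, 25.6 and 21.7 CPM in the Control libraries and 18.9, 17.9 and 18.3 CPM in the Insulin libraries, giving log2FC -0.41 ± 0.07 (SE, edgeR adjusted p = 2.2e-05). IGF1R, the receptor of insulin-like growth factor 1 (ENSG00000140443.15, chromosome 15, 98648539 to 98964530, plus strand), was at 106, 97.4 and 95.7 CPM with vehicle and 82.02, 79.8 and 83.3 CPM with insulin, giving log2FC -0.29 ± 0.04 (SE, edgeR adjusted p = 1.1e-06). The 3 Insulin libraries were below all Control libraries in each. IRS2, an adaptor that carries the signal to PI3K, was at 46.3, 46.2 and 49.6 CPM with vehicle and 41.9, 37.8 and 39.3 CPM with insulin, giving log2FC -0.26 ± 0.05 (SE, edgeR adjusted p = 2.7e-04). GAB2, another docking adaptor, fell with log2FC -0.44 (edgeR adjusted p = 4.9e-06), while IRS1 stood at log2FC -0.03 (edgeR adjusted p = 0.89). The receptor and adaptor list had 5 lower and 1 higher of 31 measured members, with a median log2 fold change of -0.02. The 10 measured inhibitors of the receptor in the list, such as PTPN1 with log2FC 0.08 (edgeR adjusted p = 0.22), held no member that passed. The other members that passed were binding proteins, IGFBP5 with log2FC 0.21 (edgeR adjusted p = 0.0024) and IGFBP6 with log2FC -0.18 (edgeR adjusted p = 0.025). IGFBP5 missed 0.05 without Insulin 1 (edgeR adjusted p = 0.099), and IGFBP6 without Control 3, Insulin 1 or Insulin 3 (edgeR adjusted p = 0.34, 0.074 and 0.19), and also by DESeq2, by limma-voom or with only Control and Insulin libraries fitted (adjusted p = 0.075, 0.0603 and 0.056).

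In the PI3K, AKT and mTOR list, 7 of 66 measured members fell and 3 rose, and the median log2 fold change was -0.01. PIK3IP1, an inhibitor of PI3K (ENSG00000100100.13, chromosome 22, 31281594 to 31292534, minus strand), was at 11.3, 11.3 and 9.66 CPM in the Control libraries and 6.598, 6.87 and 5.76 CPM in the Insulin libraries, giving log2FC -0.74 ± 0.10 (SE, edgeR adjusted p = 2.4e-07). PIK3R3, a regulatory subunit of PI3K, was at 51.4, 54.6 and 50.2 CPM with vehicle and 69.1, 60.98 and 62.2 CPM with insulin, giving log2FC 0.30 ± 0.05 (SE, edgeR adjusted p = 5.7e-06). The inhibitor was thus lower and a regulatory subunit higher with insulin, with no overlap of libraries for either. The catalytic subunit PIK3CA was at log2FC -0.03 (edgeR adjusted p = 0.83). Further down, TBC1D4, an AKT substrate in glucose uptake, fell with log2FC -0.23 (edgeR adjusted p = 5.7e-04), PDCD4, a translation inhibitor, with log2FC -0.30 (edgeR adjusted p = 7.5e-05), EIF4B, a translation initiation factor, with log2FC -0.22 (edgeR adjusted p = 2.0e-05), and CASTOR2, of the arginine sensor family of the mTORC1 pathway, with log2FC -0.28 (edgeR adjusted p = 9.3e-05). Of the FOXO genes, FOXO4 fell with log2FC -0.30 (edgeR adjusted p = 2.9e-04), whereas FOXO1 stood at log2FC -0.08 (edgeR adjusted p = 0.82) and FOXO3 at log2FC -0.05 (edgeR adjusted p = 0.66). RICTOR, a subunit of mTORC2, had log2FC -0.18 (edgeR adjusted p = 0.0071) and missed 0.05 without Control 1 or Insulin 2 (edgeR adjusted p = 0.055 and 0.075). FNIP1 and PHLPP2 were the other members that rose. FNIP1 missed 0.05 without Control 1, Control 2, Insulin 1, Insulin 2 or Insulin 3 (edgeR adjusted p = 0.22, 0.051, 0.063, 0.072 and 0.054). PHLPP2 missed it without Control 1, Control 2, Control 3, Insulin 1, Insulin 2 or Insulin 3 (edgeR adjusted p = 0.083, 0.063, 0.056, 0.076, 0.085 and 0.17), and also by DESeq2 or by limma-voom (adjusted p = 0.056 and 0.07). MTOR and AKT1 did not pass, with log2FC 0.03 (edgeR adjusted p = 0.75) and log2FC -0.07 (edgeR adjusted p = 0.39).

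Of 52 measured members of the FOXO target list 20 fell, 14 of them at 0.001, and none rose. Across the list the median log2 fold change was -0.19, against -0.01 for all genes. Of the 58 names written, 56 matched a gene of the files. Those left out were SOD2, a main gene of oxidant defence, which was not analysed here, and SEPP1, an older symbol of SELENOP. SELENOP is also in the list under its current symbol and was measured. Of the members that fell, INSR, IRS2, PIK3IP1 and RICTOR are also in the lists above. Lower members made up 9 of 18 in growth arrest, 5 of 9 in feedback on the insulin pathway, 3 of 7 in cell death, 3 of 10 in atrophy and autophagy, 0 of 4 in oxidant defence and 0 of 4 in metabolism. The count ran from 16 to 21 with each library left out.

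CCNG2, cyclin G2, an inhibitor of the cell cycle (ENSG00000138764.15, chromosome 4, 77157207 to 77433388, plus strand), was at 107, 104 and 103 CPM in the Control libraries and 81.5, 77.7 and 78.2 CPM in the Insulin libraries, giving log2FC -0.40 ± 0.04 (SE, edgeR adjusted p = 5.1e-11). MXI1, which opposes MYC, was at 52.5, 53.8 and 53.5 CPM with vehicle and 43.4, 39.6 and 40.3 CPM with insulin, giving log2FC -0.37 ± 0.05 (SE, edgeR adjusted p = 1.0e-07). BTG1, an antiproliferative gene whose promoter window is shown above, was at 36.3, 42.9 and 37.6 CPM with vehicle and 31.1, 30.8 and 30.8 CPM with insulin, giving log2FC -0.33 ± 0.06 (SE, edgeR adjusted p = 2.2e-05). Every one of these growth-arrest genes had its highest Insulin library below its lowest Control library. CDKN2B, which encodes the CDK inhibitor p15, fell with log2FC -0.24 (edgeR adjusted p = 1.5e-04), RBL2, a pocket protein of quiescence, with log2FC -0.21 (edgeR adjusted p = 0.0012), and CITED2, a transcriptional co-regulator, with log2FC -0.22 (edgeR adjusted p = 1.3e-04). The CDK inhibitors CDKN1A and CDKN1B were at log2FC 0.00 and -0.14, with adjusted p = 0.99 and 0.19 in edgeR.

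Among death genes, BCL2L11, which encodes the BH3 protein BIM, was at 43.5, 47.6 and 48.8 CPM in the Control libraries and 40.1, 38.1 and 38.4 CPM in the Insulin libraries, giving log2FC -0.27 ± 0.05 (SE, edgeR adjusted p = 3.2e-04). TNFSF10, the death ligand TRAIL, fell with log2FC -0.45 (edgeR adjusted p = 0.0023). Of the genes for protein breakdown and autophagy, FBXO32, the ubiquitin ligase atrogin-1, was at 13.8, 16.3 and 16.1 CPM with vehicle and 12.02, 11.4 and 11.03 CPM with insulin, giving log2FC -0.42 ± 0.08 (SE, edgeR adjusted p = 1.3e-04). Its partner in muscle atrophy, TRIM63, is listed too and did not pass, with log2FC -0.47 (edgeR adjusted p = 0.66). PINK1, a kinase of mitophagy, fell with log2FC -0.23 (edgeR adjusted p = 2.0e-05), GLUL, glutamine synthetase, with log2FC -0.32 (edgeR adjusted p = 7.7e-08), and KLHL24, an adaptor of a ubiquitin ligase, with log2FC -0.35 (edgeR adjusted p = 2.9e-07). TXNIP, an inhibitor of glucose uptake, was at 44.5, 59.3 and 54.6 CPM with vehicle and 45.6, 46.9 and 46.2 CPM with insulin, giving log2FC -0.20 ± 0.09 (SE, edgeR adjusted p = 0.27). None of the 4 measured members of oxidant defence passed, with 2 positive and 2 negative values. CAT (catalase) stood at log2FC 0.03 (edgeR adjusted p = 0.82) and PRDX3 at log2FC 0.16 (edgeR adjusted p = 0.36). SELENOP, another member, stood at log2FC -0.63 (edgeR adjusted p = 0.14).

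Of 50 measured members of the ATF4 list 12 rose and 1, NDRG1, fell, and the median log2 fold change was 0.11. The higher count included 4 of 12 amino acid enzymes, 4 of 15 genes for transport and charging, 2 of 14 for feedback and stress and 2 of 9 factors. ATF4 itself was at 142, 135 and 135 CPM with vehicle and 151, 154 and 149 CPM with insulin, giving log2FC 0.14 ± 0.04 (SE, edgeR adjusted p = 0.0195), and missed 0.05 without Control 2 or Insulin 2 (edgeR adjusted p = 0.071 and 0.13). After PSAT1, the serine enzyme PSPH was at 31.5, 36.4 and 29.9 CPM with vehicle and 41.9, 41.3 and 38.8 CPM with insulin, giving log2FC 0.32 ± 0.06 (SE, edgeR adjusted p = 4.6e-05). XPOT, an exporter of tRNA, rose with log2FC 0.20 (edgeR adjusted p = 6.5e-05) and GARS1, a tRNA synthetase, with log2FC 0.16 (edgeR adjusted p = 0.0016). CHAC1, which breaks down glutathione, was at 2.24, 2.44 and 2.99 CPM with vehicle and 3.72, 3.22 and 4.197 CPM with insulin, giving log2FC 0.51 ± 0.16 (SE, edgeR adjusted p = 0.035). CHAC1 missed 0.05 without Control 1, Control 2, Insulin 1 or Insulin 3 (edgeR adjusted p = 0.12, 0.11, 0.0698 and 0.22), and also by DESeq2 or by limma-voom (adjusted p = 0.084 and 0.089). ASNS, asparagine synthetase, whose window holds the same letters, stood at log2FC -0.12 (edgeR adjusted p = 0.93), and HERPUD1 at log2FC -0.03 (edgeR adjusted p = 0.82). ASNS held only 6 to 15 counts per library and shares exons on its strand with a read-through gene in GENCODE, so its level is uncertain. NDRG1, also a gene of low oxygen, was at 131, 129.7 and 123 CPM with vehicle and 105, 102 and 105 CPM with insulin, giving log2FC -0.30 ± 0.04 (SE, edgeR adjusted p = 9.4e-08). DDIT3 (CHOP) and TRIB3, stress genes of the list, were at log2FC 0.11 and 0.16, with adjusted p = 0.57 and 0.37 in edgeR. The higher count ran from 8 to 12 with each library left out.

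**Figure D3:**
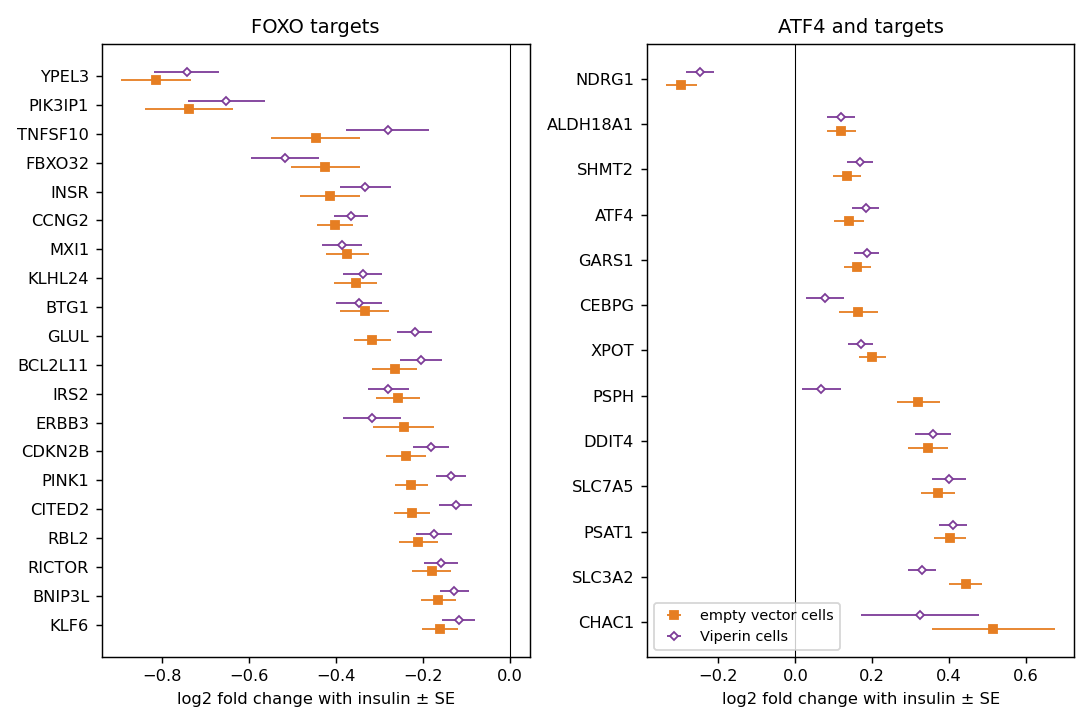
Log2 fold change with insulin ± standard error (x axis) for the 20 FOXO list members that fell and the 13 ATF4 list members that passed in empty vector cells, beside the value in Viperin cells. Squares are Insulin over Control and open diamonds Viperin + Insulin over Viperin, each with 3 libraries a side, and every pair lies on the same side of 0.

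The amino acid and one-carbon list, which shares PSAT1, PSPH and SHMT2 with the ATF4 list, had 6 higher and 3 lower of 48 measured members. GLUL, shared with the FOXO list, was among the lower members. The higher count was 3 without Insulin 2 and 3 without Insulin 3. Of 30 amino acid transporters measured, 3 rose and 2 fell. SLC7A2, a carrier of arginine and lysine, was the lower one with the smallest p, at log2FC -0.30 (edgeR adjusted p = 0.0022).

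Genes that charge tRNA rose in 8 of 38 measured, and none fell. MARS1, methionyl-tRNA synthetase, was at 156, 161 and 160.2 CPM in the Control libraries and 183, 192 and 185 CPM in the Insulin libraries, giving log2FC 0.23 ± 0.04 (SE, edgeR adjusted p = 8.3e-06). YARS1, the tyrosyl enzyme, was at 91.8, 93.98 and 98.2 CPM with vehicle and 112, 110.1 and 113 CPM with insulin, giving log2FC 0.24 ± 0.04 (SE, edgeR adjusted p = 2.0e-05). Both were higher in every Insulin library. The cytosolic group held 7 of 23 and the mitochondrial group 1 of 15, YARS2, with log2FC 0.29 (edgeR adjusted p = 1.8e-04). The median of the list was 0.09, and its count was 4 without Insulin 2 and 5 without Insulin 3.

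Ribosome biogenesis genes rose in 18 of 50 and none fell, with a median of 0.11. DDX21, a nucleolar RNA helicase, was at 286, 274 and 285 CPM in the Control libraries and 315, 336 and 328 CPM in the Insulin libraries, giving log2FC 0.21 ± 0.04 (SE, edgeR adjusted p = 2.6e-05). UTP20, of the complex that processes the small subunit, was at 82.8, 75.8 and 73.6 CPM with vehicle and 88.5, 94.6 and 95.03 CPM with insulin, giving log2FC 0.26 ± 0.05 (SE, edgeR adjusted p = 5.5e-05). NIP7, RRP12 and DKC1, which also act in the making of ribosomes, rose with log2FC 0.25, 0.20 and 0.18 and with adjusted p = 0.0018, 0.0027 and 0.0012 in edgeR. Among 13 genes of RNA polymerase I, 1 rose, POLR1B, with log2FC 0.17 (edgeR adjusted p = 0.014), and it missed 0.05 without Control 2, Insulin 2 or Insulin 3 (edgeR adjusted p = 0.095, 0.13 and 0.0902). The count was 9 without Insulin 2. Ribosomal protein genes, by contrast in number, had 0 higher and 5 lower of 77, with a median of -0.02. RPL13A fell with log2FC -0.20 (edgeR adjusted p = 2.2e-05), and the count of lower ribosomal protein genes was 2 without Insulin 1, 1 without Insulin 2 and 2 without Insulin 3. These genes have many near-identical processed copies in the genome, so their counts are uncertain.

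Proteasome genes rose in 22 of 48 measured, or 45.8% against 2.53% of all genes tested, and none fell. That share was the highest in a direction among the 25 pathway lists, which were chosen with earlier results of these data known. All genes tested include many of low level, and no comparison with genes of like level was made. The group held 13 of 21 in the regulatory particle, 6 of 17 in the core and 3 of 10 among activators and assembly factors, and the median was 0.13. PSMD14, the deubiquitinase of the lid (ENSG00000115233.12, chromosome 2, 161308425 to 161411717, plus strand), was at 184, 185 and 177 CPM in the Control libraries and 204, 221 and 222 CPM in the Insulin libraries, giving log2FC 0.24 ± 0.04 (SE, edgeR adjusted p = 3.6e-06). PSMD11, another lid subunit, was at 270.4, 284 and 283 CPM with vehicle and 306, 323 and 326 CPM with insulin, giving log2FC 0.19 ± 0.04 (SE, edgeR adjusted p = 1.5e-04). PSMC4, an ATPase of the base, was at 99.4, 105 and 106 CPM with vehicle and 117, 117 and 121 CPM with insulin, giving log2FC 0.19 ± 0.04 (SE, edgeR adjusted p = 6.7e-04). All were higher in every Insulin library, with group means 1.14 to 1.18 times those of Control. PSMB2, a core subunit, rose with log2FC 0.18 (edgeR adjusted p = 7.3e-04). The count was 9 without Insulin 2 and 13 without Insulin 3.

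In the list of endoplasmic reticulum chaperones and the unfolded protein response, 7 of 60 members rose and 2 fell, with a median of 0.04. SRPRB, of the receptor for nascent secreted proteins, rose with log2FC 0.24 (edgeR adjusted p = 2.2e-05) and VCP, the ATPase that extracts proteins for degradation, with log2FC 0.19 (edgeR adjusted p = 2.9e-04). OS9, a lectin of the same degradation pathway, fell with log2FC -0.20 (edgeR adjusted p = 1.0e-04), and CREB3L2 with log2FC -0.17 (edgeR adjusted p = 0.0014). XBP1 was at log2FC 0.07 (edgeR adjusted p = 0.48) and HSP90B1 at log2FC 0.08 (edgeR adjusted p = 0.19). The higher count was 4 without Insulin 2.

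Sterol and fatty acid genes had 9 lower and 1 higher of 55 measured, with a median of -0.06. TM7SF2, a sterol reductase, was at 103, 100.4 and 107 CPM in the Control libraries and 83.2, 82.3 and 80.9 CPM in the Insulin libraries, giving log2FC -0.33 ± 0.04 (SE, edgeR adjusted p = 1.4e-08). ELOVL6, which lengthens fatty acids, was at 327, 344 and 319 CPM with vehicle and 299, 269 and 271 CPM with insulin, giving log2FC -0.24 ± 0.04 (SE, edgeR adjusted p = 8.3e-06). In both the Insulin libraries lay below all Control libraries. LSS and SQLE, enzymes of cholesterol synthesis, fell with log2FC -0.19 (edgeR adjusted p = 4.6e-04) and log2FC -0.15 (edgeR adjusted p = 0.0027). SREBF2, the sterol factor whose window is shown above, was at 298, 287 and 299 CPM with vehicle and 273, 269.8 and 263 CPM with insulin, giving log2FC -0.13 ± 0.04 (SE, edgeR adjusted p = 0.011), and missed 0.05 without Insulin 2 or Insulin 3 (edgeR adjusted p = 0.052 and 0.12), and also with only Control and Insulin libraries fitted (adjusted p = 0.054). SREBF1, the related factor of fatty acid synthesis, stood at log2FC 0.02 (edgeR adjusted p = 0.87), and FASN, fatty acid synthase, at log2FC -0.07 (edgeR adjusted p = 0.32). The lower count was 6 to 13 with each library left out.

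Genes of glycolysis and of low oxygen moved both ways, with 8 higher and 5 lower of 54 and a median of 0.01. SLC2A1, the glucose transporter GLUT1, was at 62.1, 61.3 and 60.9 CPM in the Control libraries and 69.3, 72.5 and 72.03 CPM in the Insulin libraries, giving log2FC 0.21 ± 0.04 (SE, edgeR adjusted p = 6.4e-04). SLC2A12, another glucose transporter, fell with log2FC -0.38 (edgeR adjusted p = 5.3e-04). STC1, a secreted target of HIF, rose with log2FC 0.38 (edgeR adjusted p = 4.2e-05), whereas NDRG1 and MXI1, shared with the lists above, fell. HIF1A was at log2FC 0.04 (edgeR adjusted p = 0.61) and PFKFB3, a driver of glycolysis, at log2FC 0.11 (edgeR adjusted p = 0.305). The higher count was 5 without Insulin 1, 3 without Insulin 2 and 5 without Insulin 3, and the lower count 3 without Insulin 2 and 3 without Insulin 3. In nucleotide synthesis 3 of 38 rose and 1 fell. PRPS1, which makes the ribose phosphate donor, rose with log2FC 0.20 (edgeR adjusted p = 1.2e-04), and CTPS1, CTP synthase, with log2FC 0.22 (edgeR adjusted p = 3.8e-04).

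Of 87 respiratory chain genes 1 rose and 1 fell. All 13 mitochondrially encoded members had negative values, with a median of -0.30, and 1 of them passed, MT-ND4L, with log2FC -0.24 (edgeR adjusted p = 0.046). MT-ND4L missed 0.05 without Control 2, Control 3, Insulin 1, Insulin 2 or Insulin 3 (edgeR adjusted p = 0.14, 0.24, 0.11, 0.16 and 0.071). MT-CO1 was at 11006, 12013 and 13534 CPM in the Control libraries and 10527, 11034 and 10852 CPM in the Insulin libraries, giving log2FC -0.17 ± 0.08 (SE, edgeR adjusted p = 0.34). With the mitochondrially encoded genes left out of the fit and the library sizes, 122 genes were higher and 175 lower at 0.001.

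Matrix genes were lower in 16 and higher in 4 of 108 measured, with a median of -0.05. LTBP3, which holds latent TGF-beta in the matrix, was at 36.8, 38.5 and 39.7 CPM in the Control libraries and 31.4, 28.8 and 27.3 CPM in the Insulin libraries, giving log2FC -0.39 ± 0.06 (SE, edgeR adjusted p = 4.6e-07). COL8A1, a short-chain collagen, was at 29.8, 28.995 and 28.1 CPM with vehicle and 21.1, 22.7 and 21.6 CPM with insulin, giving log2FC -0.41 ± 0.06 (SE, edgeR adjusted p = 4.9e-06). Both were lower in all Insulin libraries. SRPX2, a secreted matrix protein, fell with log2FC -0.49 (edgeR adjusted p = 1.0e-04), TNXB, a tenascin, with log2FC -0.43 (edgeR adjusted p = 6.1e-04), and LAMB2 and HSPG2 of the basement membrane with log2FC -0.22 (edgeR adjusted p = 0.0012) and log2FC -0.24 (edgeR adjusted p = 0.0027). COL14A1 rose from a low level, 1.005, 0.627 and 0.479 CPM with vehicle and 1.48, 1.28 and 1.8999 CPM with insulin, giving log2FC 1.11 ± 0.26 (SE, edgeR adjusted p = 0.0014). COL1A1 and COL3A1, fibrillar collagen genes, were at log2FC 0.10 and 0.04, with adjusted p = 0.58 and 0.76 in edgeR. The lower count was 10 without Insulin 3. Beside these counts, the stromal marker list had 3 of 15 lower and 0 higher, among them PDGFRB, with log2FC -0.31 (edgeR adjusted p = 1.1e-06), while its summed level overlapped between the groups. The part of cell composition in the matrix values was not tested.

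Among matrix proteases and their inhibitors 3 of 51 rose and 4 fell, none at 0.001. ADAM12, a metalloprotease of the cell surface, rose with log2FC 0.17 (edgeR adjusted p = 0.0051). Adhesion genes fell in 8 of 61 and none rose, with a median of -0.04. CD44, the hyaluronan receptor (ENSG00000026508.19, chromosome 11, 35138882 to 35232402, plus strand), was at 1516, 1564 and 1581 CPM in the Control libraries and 1193, 1383 and 1304 CPM in the Insulin libraries, giving log2FC -0.26 ± 0.04 (SE, edgeR adjusted p = 1.1e-06). NCAM1, an adhesion molecule of the immunoglobulin family, was at 95.4, 94.6 and 104 CPM with vehicle and 78.8, 80.6 and 83.2 CPM with insulin, giving log2FC -0.28 ± 0.04 (SE, edgeR adjusted p = 4.2e-06). ITGB4, the integrin of hemidesmosomes, was at 34.5, 29.2 and 32.7 CPM with vehicle and 27.02, 25.4 and 24.2 CPM with insulin, giving log2FC -0.33 ± 0.06 (SE, edgeR adjusted p = 4.1e-04). The groups did not overlap in any of these, and CD44 kept more than 1000 CPM in both. BCAM, a laminin receptor, fell with log2FC -0.32 (edgeR adjusted p = 7.4e-04). The summed epithelial markers, given above, were higher in every Insulin than in every Control library. Most of that sum came from KRT8, KRT18 and KRT19, and by the test 0 of 14 measured members were higher and 1 lower. The part of these markers in the adhesion values was not tested. Among 31 angiogenic factors 3 rose and 4 fell, with STC1 higher as above and SEMA3C, a guidance factor, lower at log2FC -0.22 (edgeR adjusted p = 1.3e-04), and VEGFA stood at log2FC 0.11 (edgeR adjusted p = 0.24).

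Lysosome and autophagy genes were lower in 12 and higher in 4 of 90, with a median of -0.02. CTSF, a lysosomal cysteine protease, was at 29.99, 27.4 and 28.4 CPM in the Control libraries and 22.4, 20.7 and 18.4 CPM in the Insulin libraries, giving log2FC -0.48 ± 0.07 (SE, edgeR adjusted p = 3.6e-07). TP53INP2, an activator of autophagy, was at 41.5, 46.7 and 50.1 CPM with vehicle and 38.6, 33.9 and 35.9 CPM with insulin, giving log2FC -0.36 ± 0.05 (SE, edgeR adjusted p = 4.2e-06). Each had all Insulin libraries below all Control libraries. NBR1 and OPTN, which bring cargo to autophagosomes, fell with log2FC -0.20 (edgeR adjusted p = 4.5e-05) and log2FC -0.19 (edgeR adjusted p = 2.9e-04), and CTSZ, another protease, with log2FC -0.20 (edgeR adjusted p = 0.0013). TFEB, the factor that mTORC1 holds in the cytoplasm, was at log2FC -0.33 (edgeR adjusted p = 0.13). The lower count was 7 without Insulin 2.

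Cell cycle genes had 5 higher and 8 lower of 84, with a median of 0.00. CCND1, cyclin D1, was at 102, 115 and 101 CPM in the Control libraries and 118, 126 and 123 CPM in the Insulin libraries, giving log2FC 0.21 ± 0.04 (SE, edgeR adjusted p = 3.3e-04). CDC20, which activates the anaphase-promoting complex, was at 209, 223 and 219 CPM with vehicle and 240.4, 252 and 253 CPM with insulin, giving log2FC 0.20 ± 0.04 (SE, edgeR adjusted p = 1.3e-04). Cyclin D1 and CDC20 were higher in every Insulin library. Of 11 inhibitors in the list 4 fell, with CCNG2, CDKN2B and RBL2 shared with the FOXO list. MKI67, a marker of dividing cells, was at log2FC -0.03 (edgeR adjusted p = 0.78). The higher count was 8 without Control 2, 3 without Control 3 and 2 without Insulin 2, and the lower count 4 without Insulin 1, 3 without Insulin 2 and 3 without Insulin 3.

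Interferon, cytokine and ERK genes passed at shares near or below the 5.49% of all genes called in either direction, so their counts do not set these lists apart. Of 59 interferon genes 2 fell, GBP2 and IRF2, and 1 rose, IFNGR1. RSAD2 was at 3.48, 2.28 and 2.99 CPM in the Control libraries and 3.01, 3.82 and 5.19 CPM in the Insulin libraries, giving log2FC 0.46 ± 0.57 (SE, edgeR adjusted p = 0.78), and its groups overlapped. The fit took its spread over all 12 libraries, including those with the RSAD2 plasmid. This SE and p are therefore not those of Control and Insulin libraries alone. ISG15 was at log2FC 0.29 (edgeR adjusted p = 0.35). Of 35 measured genes of NF-kB and cytokines only CCL2, a chemokine, passed, with log2FC 0.41 (edgeR adjusted p = 0.034), and it missed 0.05 without Control 2, Control 3, Insulin 2 or Insulin 3 (edgeR adjusted p = 0.061, 0.063, 0.11 and 0.13). Of 38 genes of ERK feedback and immediate targets, AREG, an EGF receptor ligand, was higher and ETV1, an ETS factor, lower, with log2FC 1.08 (edgeR adjusted p = 0.035) and log2FC -0.26 (edgeR adjusted p = 0.00803). AREG missed 0.05 without Control 2, Control 3, Insulin 1 or Insulin 3 (edgeR adjusted p = 0.098, 0.11, 0.18 and 0.0902), and also by DESeq2, by limma-voom or on unstranded counts (adjusted p = 0.086, 0.079 and 0.068). ETV1 missed it without Insulin 1 (edgeR adjusted p = 0.17). DUSP6 and SPRY4, feedback genes of ERK, stood at log2FC -0.04 and -0.02, with adjusted p = 0.92 and 0.96 in edgeR. IRF2 missed 0.05 without Control 1, Control 3, Insulin 1 or Insulin 2 (edgeR adjusted p = 0.11, 0.11, 0.14 and 0.13), and also without a filter on low counts, by DESeq2, by limma-voom or with only Control and Insulin libraries fitted (adjusted p = 0.052, 0.056, 0.054 and 0.072). IFNGR1 missed it without Control 3, Insulin 2 or Insulin 3 (edgeR adjusted p = 0.29, 0.085 and 0.202), and also by limma-voom or with only Control and Insulin libraries fitted (adjusted p = 0.0502 and 0.053).

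**Figure D4:**
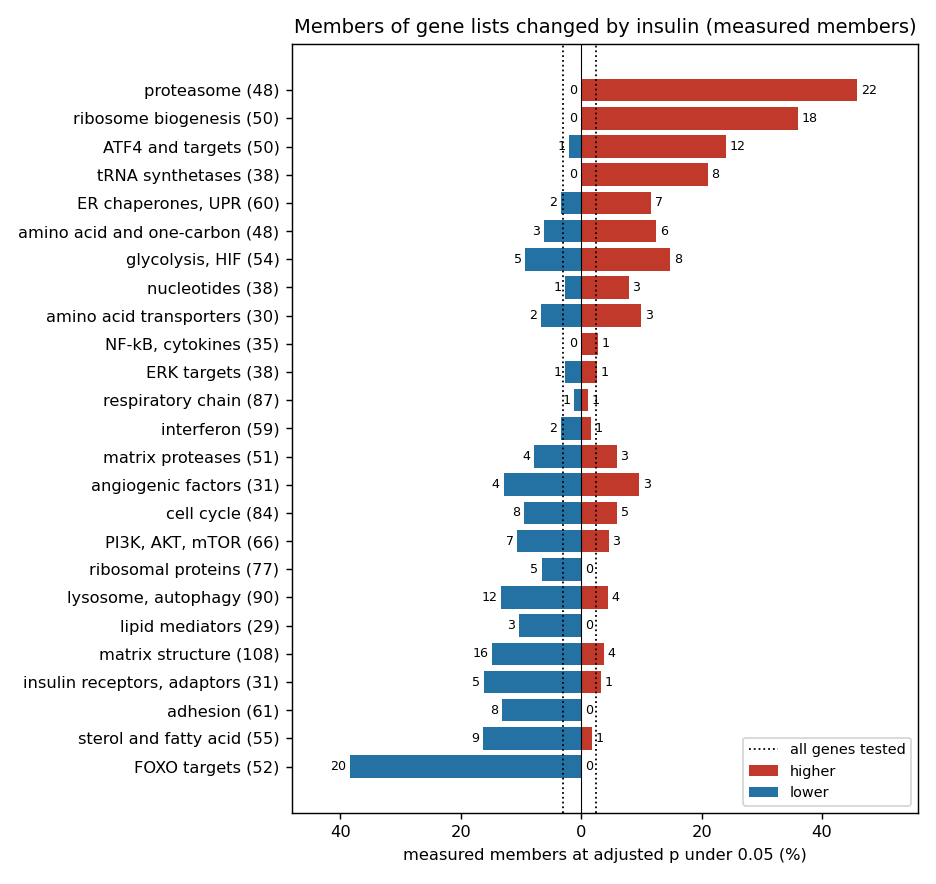
Share of the measured members of each gene list (x axis, percent, number measured in brackets) that were higher (right) or lower (left) with insulin at an adjusted p under 0.05, with counts at the bar ends. Dotted lines mark the same shares among all genes tested, 2.53% higher and 2.96% lower, and lists range from 22 of 48 proteasome genes higher to 20 of 52 FOXO targets lower.

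In the cells transfected with pCAG Viperin, fitted on their own 6 libraries, all 272 genes called with the empty vector had the same sign, and 231 also passed an adjusted p of 0.05 in edgeR, where 3.17% of 23419 genes were higher and 3.56% lower, 6.73% together. The share of all genes tested that had the same sign in both was not counted. These libraries are not shared with Insulin and Control, but the same line, insulin dose and time were used. By list, 27 FOXO targets fell and 1 rose in Viperin cells, 17 ATF4 targets rose and 1 fell, 14 genes for tRNA charging rose, 19 of ribosome biogenesis rose, 27 of the proteasome rose and 22 of the matrix fell. Receptors and adaptors had 5 lower and the PI3K list 7 lower, as with the empty vector. Other lists had fewer calls there, or calls in a direction that held few or none with the empty vector. Lower sterol genes numbered 6 against 9, with 2 against 5 in cholesterol synthesis, and LSS and SQLE did not pass (log2FC -0.06 and -0.07, adjusted p = 0.39 and 0.23 in edgeR). Lower lysosome and autophagy genes numbered 10 against 12. Ribosomal protein genes had 5 higher against 0 and 6 lower against 5, respiratory chain genes 8 lower against 1, and interferon and ERK genes 7 lower each, against 2 and 1. Of the 8 respiratory chain genes, 7 were mitochondrially encoded. The 13 mitochondrially encoded genes had a median log2 fold change of -0.22 in Viperin cells and -0.30 with the empty vector, where all 13 were negative. Their larger count in Viperin cells thus did not come with a larger median fall. Of the members called at 0.05 with the empty vector, all 20 FOXO targets and 21 of 22 proteasome genes also passed in Viperin cells, whereas the same held for 5 of 10 sterol genes, 7 of 16 lysosome genes, 2 of 5 ribosomal protein genes and 0 of 2 respiratory chain genes. PSAT1 had a log2 fold change of 0.41 there, FAXDC2 -0.55, YPEL3 -0.74, INSR -0.33, PIK3IP1 -0.65 and CYSLTR2 -1.61, against 0.40, -0.69, -0.81, -0.41, -0.74 and -1.47 in empty vector cells. PSPH was one that was called at 0.001 with the empty vector and stood at 0.07 in Viperin cells (adjusted p = 0.57 in edgeR), yet the test of the difference had an adjusted p of 0.55. In that test, over all 12 libraries, 0 genes differed between the insulin responses at 0.001 or 0.05 by edgeR, and 1297 of 23041 had an unadjusted p under 0.05. That number is close to the share of 0.05 expected if no gene differed. A difference of responses has a larger SE than either response, for PSPH 0.079 against 0.056 with the empty vector and 0.051 in Viperin cells. The absence of calls therefore does not show that the responses were equal.

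The number of genes called depended on 2 of the Insulin libraries. Without Insulin 2, 31 genes were higher and 99 lower at 0.001, and without Insulin 3, 31 and 91. Leaving out Control 1, the one with the most reads mapping to several places, gave 128 and 218. Of the 272 genes, 89 kept an adjusted p under 0.001 with every single library left out, 21 higher and 68 lower. They include FAXDC2, YPEL3, CYSLTR2, JUP, CCNG2, INSR, PSAT1, SLC3A2, SLC7A5 and HSPA5.

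**Figure D5:**
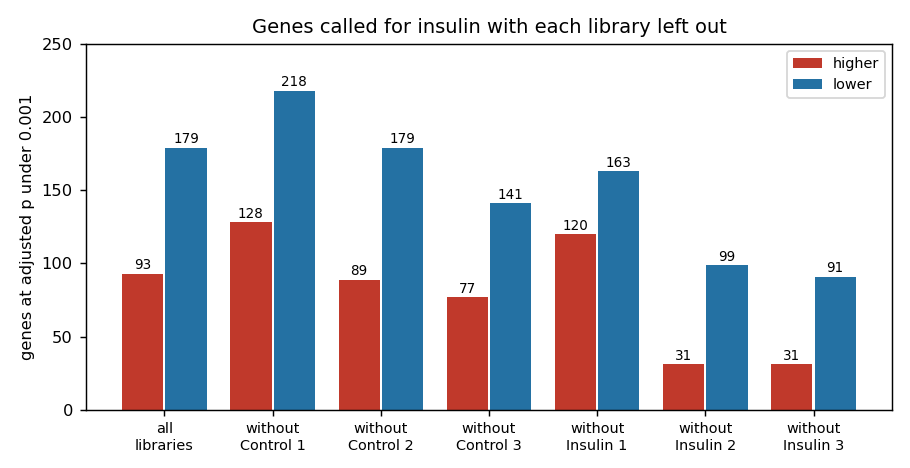
Genes called higher and lower at an adjusted p under 0.001 (y axis) with all libraries and with each library left out in turn (x axis). The counts run from 31 to 128 higher and from 91 to 218 lower, and are lowest without Insulin 2 or 3.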

How the data were processed

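mRNA-seq libraries were made from 500 ng of total RNA with the KAPA mRNA HyperPrep kit and sequenced as paired-end reads. Per the methods and the submitters' processing notes, the authors used cutadapt, Trim Galore and FastQC for trimming and quality control, and STAR for alignment to hg38 and for counting per gene, in versions not given in the sources used here. Deposited were raw counts of pairs, 1 table per library, without normalization. Reverse-strand counts of 60617 genes were used, which held 94.1% to 94.3% of the pairs assigned to a strand. The first 4 lines, reads that were unmapped, mapped to several places, ambiguous or without a gene, were left out of library sizes, and 20.7% to 24.9% of the pairs in Control and Insulin libraries had no gene. Names and positions came from GENCODE release 44, whose release may differ from that of the authors, and 260 IDs had no name there.

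The 23041 genes that averaged 1 count or more per library were TMM-normalized and fitted as 4 group means over all 12 libraries with the robust quasi-likelihood method of edgeR 4.0.16 in R 4.3.3, with log2 fold changes moderated by a prior count of 2. Each SE was worked back from the test. It is the absolute unmoderated log2 fold change divided by the square root of the F statistic. The Benjamini-Hochberg adjustment ran over all genes. Calls were made at an adjusted p under 0.001, the threshold of the study, which used DESeq2, and list members at 0.05. The insulin response in Viperin cells was fitted on those 6 libraries alone. No list was given a set test. Some members of the lists are counted but not reported here by name.

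The 25 gene lists, 6 marker lists and the rule for named genes were chosen with earlier results of these data known. Among genes called at 0.001, the rule took the 12 higher and 12 lower with the smallest p whose groups did not overlap and the 5 largest changes each way at 1 CPM or more, and further up to 6 members of each list by p at 0.05, and 12 genes always, INSR, IGF1R, IRS1, IRS2, PIK3IP1, FOXO1, FOXO3, ATF4, SREBF1, SREBF2, HIF1A and RSAD2. Other genes are named where few members passed or as well-known members of a list, which was a choice made after seeing their values. Alternatives were RLE size factors, DESeq2 1.42.0, limma-voom (limma 3.58.1), no filter, filterByExpr, unstranded counts, a replicate block, only Control and Insulin libraries, mitochondrial genes left out, and each library left out in turn. Promoter windows came from RefSeq on GRCh38.p14. Simulated counts for Insulin against Control, with 22509 genes, took the mean levels and fitted spread of all 12 libraries. Counts were drawn independently for each gene and library. Changes were planted only in genes averaging above 1 CPM, so recovery at lower levels was not tested. At 0.001 the test called 46 of 50 genes changed by 1.5-fold and 49 of 50 changed by 4-fold. False calls numbered 0 at 0.001 and 15 at 0.05. Shifts shared by many genes of a library were not simulated, so these numbers do not cover them. Tables and figures were made with Python 3.11.15, pandas 2.3.3 and matplotlib 3.10.9.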

Additional observations from a re-analysis of the deposited data

How the results depend on the processing

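At 0.001, 93 genes were higher and 179 lower. Without a filter on low counts 182 genes were higher, and the lower count was 119 when only Control and Insulin libraries were fitted. DESeq2, limma-voom, RLE size factors, filterByExpr, unstranded counts and mitochondrial genes left out kept both counts within 1.5 times. At 0.05, lower glycolysis and HIF genes numbered 3 under DESeq2, limma-voom or with only Control and Insulin libraries, higher cell cycle genes 9 under filterByExpr and 8 without mitochondrial genes, and, with only Control and Insulin libraries, lower cell cycle genes 4 and lower ribosomal protein genes 1.

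With each library left out, 31 to 128 genes were higher and 91 to 218 lower. List counts ran from 4 to 5 for lower receptors and adaptors, 6 to 8 for lower PI3K genes, 16 to 21 for FOXO targets, 8 to 12 for ATF4 targets, 3 to 5 for higher amino acid and one-carbon genes, 4 to 10 for tRNA charging, 6 to 13 for sterol genes, 3 to 9 and 3 to 6 for higher and lower glycolysis genes, 4 to 10 for chaperones, 9 to 22 for the proteasome, 10 to 19 for the matrix, 6 to 11 for adhesion, 7 to 15 for lysosome and autophagy, 2 to 8 and 3 to 9 for higher and lower cell cycle genes, 1 to 7 for ribosomal proteins and 9 to 19 for ribosome biogenesis. The cause was not tested.

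Same-numbered Control and Insulin libraries deviated together with correlations of -0.01, 0.05 and -0.01 over 13150 genes, and of the 3 numbers only number 2 correlated best with its own, so the replicate numbers were not taken as pairs. With the replicate block 97 genes were higher and 187 lower, and of the genes named here CCL2, MT-ND4L and ST13 missed 0.05 (edgeR adjusted p = 0.075, 0.077 and 0.0604). Of 146 genes that the naming rule took, 140 passed 0.05 and 100 of these did so under every alternative tried. None of the 140 changed direction, and a change of sign in the genes that did not pass was not counted. In the simulation 38 of 50 genes with the smallest change planted were called, so at this depth and with 3 libraries a side small changes could be missed.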

Other observations

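The gene groups that follow were put together after the values had been seen, and their counts describe these libraries only. Of 24 measured genes of the cytosolic chaperonin and the HSP90 and HSP70 machinery, 15 were higher and 1 lower with insulin at an adjusted p under 0.05, with a median log2 fold change of 0.17. CCT2 and TCP1, chaperonin subunits, stood at log2FC 0.21 (edgeR adjusted p = 4.2e-05) and log2FC 0.20 (edgeR adjusted p = 1.1e-04). HSP90AA1, the inducible cytosolic HSP90, was at 2744, 2993 and 2756 CPM with vehicle and 3094, 3348 and 3291 CPM with insulin, giving log2FC 0.20 ± 0.04 (SE, edgeR adjusted p = 6.7e-05). HSPH1 and DNAJB1, partners of HSP70, had log2FC 0.20 (edgeR adjusted p = 4.2e-05) and log2FC 0.20 (edgeR adjusted p = 8.5e-05). The lower one, ST13, had log2FC -0.12 (edgeR adjusted p = 0.049) and missed 0.05 without Control 2, Control 3, Insulin 1, Insulin 2 or Insulin 3 (edgeR adjusted p = 0.073, 0.47, 0.068, 0.17 and 0.19), and under every alternative that kept all 6 libraries (adjusted p from 0.054 to 0.16).

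Of 29 genes of the oxidant response and glutathione, 5 were higher and 0 lower, with GCLM first. HMOX1, heme oxygenase 1, was at 28.4, 31.4 and 32.6 CPM with vehicle and 35.5, 44.7 and 45.5 CPM with insulin, giving log2FC 0.44 ± 0.08 (SE, edgeR adjusted p = 0.0023). GCLC, the catalytic partner of GCLM, stood at log2FC 0.07 (edgeR adjusted p = 0.54), and NQO1 at log2FC 0.24 (edgeR adjusted p = 0.204). Of 17 polyamine genes 4 were higher and 0 lower. SRM, spermidine synthase, had log2FC 0.20 (edgeR adjusted p = 0.0013) and EIF5A2, whose protein is modified with spermidine, log2FC 0.28 (edgeR adjusted p = 1.7e-04).

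Of 12 measured desmosome and plakin genes 5 were lower and 0 higher. DSP, desmoplakin, was at 123, 114 and 121 CPM with vehicle and 109, 96.9 and 105 CPM with insulin, giving log2FC -0.21 ± 0.04 (SE, edgeR adjusted p = 6.4e-04), beside JUP and PPL. All 5 Yippee-like genes had negative values, and YPEL1 and YPEL3 passed, while YPEL2 and YPEL5 stood at log2FC -0.27 (edgeR adjusted p = 0.15) and log2FC -0.10 (edgeR adjusted p = 0.18).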
